A study of Zea mays with 18 samples.

Results

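In maize roots, 105 of the 41632 genes counted had reads in every library of the line zmnrl1-m and almost none in the inbred line B73 or in the line ZmNRL1-OE. They were chosen by their counts. A member had a level of at least 1 CPM (its count per 1000000 counts of the library) in all 6 zmnrl1-m libraries, at most 3 counts summed over the 6 B73 libraries and at most 10 summed over the 6 ZmNRL1-OE libraries. The difference between genotypes is therefore what defined these genes. It is described here and was not tested.

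The series holds 18 libraries from roots of maize seedlings 10 days old, which had spent 48 h in a modified Hoagland solution with nitrate at 0.15 mM (low, N- in the labels) or 15 mM (high, N+). There were 3 libraries for each of 6 groups, made up of B73, zmnrl1-m (labelled a mutant, and spelled zmnrl-m in the sample titles) and ZmNRL1-OE (labelled overexpression), each at both nitrate levels. The study asks how ZmNRL1, a protein with DUF630 and DUF632 domains per the series title, bears on the response to nitrogen stress. The mutant allele, the promoter of the overexpression construct, the number of independent lines and the genetic background of either line do not appear in the labels or the design text. Nothing in the labels says that replicates came from separate plantings, so their spread may in part be technical.

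Maize inbred lines are known to differ widely in gene content and in which genes are switched on. Nitrate is the main form of nitrogen in aerated soil, and roots are known to change many transcripts when its supply falls. Reads were assigned to gene models of the B73 genome per the submitters' processing notes, so each of the 105 genes is one that the B73 annotation contains. The files do not pair the identifiers with gene names, and 0 of the 41632 identifiers were found in the RefSeq table at hand, so no function is given for any of them. For that reason ZmNRL1 itself was not analysed here, and the root label was not checked against marker genes.

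Total counts lay between 21905877 and 39003607 per library. The 105 genes held 0.0727% to 0.0811% of a zmnrl1-m library, with 20926, 26362 and 17760 counts at high nitrate and 23297, 24277 and 25118 at low nitrate. In B73 they held 37, 20 and 10 counts at low nitrate and 17, 4 and 13 at high nitrate. In ZmNRL1-OE they held 34, 33 and 22 counts at low nitrate and 25, 39 and 31 at high nitrate. The fewest counts of any member in any zmnrl1-m library was 25, and the most in a single library elsewhere was 3 in B73 and 5 in ZmNRL1-OE.

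**Figure D1:**
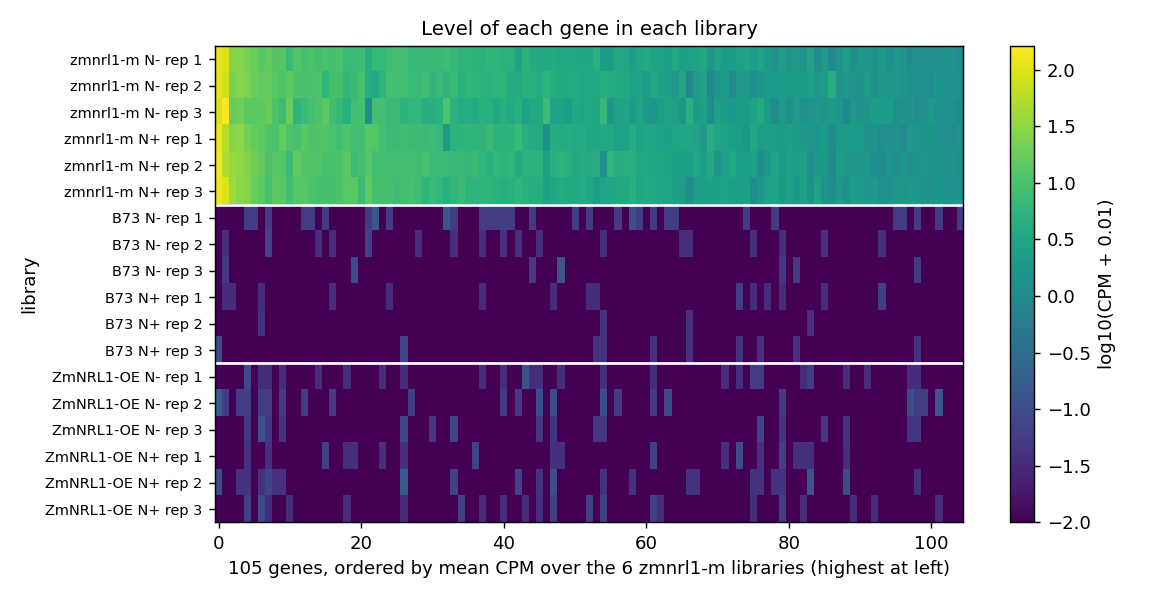
Level of each of the 105 genes (columns, ordered by mean CPM in zmnrl1-m) in each of the 18 libraries (rows), as log10(CPM + 0.01). All members are above 1 CPM in the 6 zmnrl1-m rows, and the 12 other rows hold few counts, at most 5 for any gene in a library, with 36.6% of the B73 counts in low-nitrate replicate 1.

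The limits of the rule cap each member at 3 counts over B73 and 10 over ZmNRL1-OE, so how these few counts were shared among members is a description. Of the 105 genes, 47 had 0 counts in B73, 47 had 0 counts in ZmNRL1-OE and 26 had 0 counts in all 12 libraries of both. In B73, 29 members had 1 count, 15 had 2 and 14 had 3. In ZmNRL1-OE, 37 members had 1 to 3 counts and 21 had 4 to 10, within the wider limit set for that line. A gene with 0 counts can still have had up to 0.0159 CPM over the 6 B73 libraries or 0.0151 CPM over the 6 ZmNRL1-OE libraries, a limit of 3 counts that covers counting error alone. In bulk roots a level near 0 does not tell fewer cells that express a gene from less RNA per cell.

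The 2 most abundant members held 27.9% of the members' counts in zmnrl1-m, 38362 in number, with 6 counts in B73, the most that the rule allows them, and 8 in ZmNRL1-OE. Among B73 libraries, low-nitrate replicate 1 stood apart with 36.6% of the residual counts against 11.6% of the B73 total counts. It had a count in 32 of the 105 genes, where the 5 other B73 libraries had one in 4 to 18. Leaving that library out of the rule gave 115 genes. They included all 105 by construction, since dropping a B73 library can only loosen the B73 limit.

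Most members were expressed at low levels, and 2 were far above the rest. The mean CPM in zmnrl1-m ranged from 1.24 to 122 with a median of 3.48. It was under 2 in 22 members, under 5 in 65 and at least 10 in 16 (15.2%). Among the 21705 other genes at or above 1 CPM in all 6 zmnrl1-m libraries the median was 21.3 CPM, and 70.3% had at least 10. Per length, the mean FPKM of members (the deposited level relative to gene length and library depth) ranged from 0.470 to 71.0 with a median of 3.78, against a median of 9.61 in the other genes.

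Zm00001d035590 had the highest CPM. It stood at 121, 119 and 89.1 CPM at low nitrate and at 133, 139 and 131 CPM at high nitrate in zmnrl1-m, with 3 counts over B73 and 7 over ZmNRL1-OE. All 3 high-nitrate libraries were above all 3 low-nitrate ones, and low-nitrate replicate 3 was the lowest. Its 21842 counts in zmnrl1-m gave a ratio of CPM of 7613 to B73 and of 3434 to ZmNRL1-OE. The rule capped the counts in B73 and ZmNRL1-OE, so ratios of this kind are descriptions and carry no interval.

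Zm00001d047115 ranked first per length, with 71.0 ± 31.6 FPKM against 39.001 ± 5.70 FPKM in Zm00001d035590 (SD, n = 6 zmnrl1-m libraries). It stood at 97.2, 79.5 and 162 CPM at low nitrate and at 56.7, 51.5 and 92.0 CPM at high nitrate. Replicate 3 was the highest at both nitrate levels, and the groups overlapped. It had 3 counts in B73 and 1 in ZmNRL1-OE, ratios of 5758 and 18180 that rest on those few counts.

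Of the next 4 members by CPM, Zm00001d030663 stood at 26.8, 23.4 and 16.8 CPM at low nitrate and at 28.0, 36.7 and 38.6 CPM at high nitrate. It had 1 count in B73, a ratio of 5233 that rests on that count. With 0 counts in ZmNRL1-OE, it was at least 1836-fold higher in zmnrl1-m when the floor is set at 3 counts for the 6 libraries together. Zm00001d030287 stood at 26.6, 27.9 and 18.9 CPM at low nitrate and 30.9, 31.8 and 29.4 CPM at high nitrate, with 0 counts in B73 (at least 1721-fold higher by the same floor) and 2 in ZmNRL1-OE. In both genes every high-nitrate library was above every low-nitrate one.

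Zm00001d016919 stood at 21.3, 24.2 and 14.1 CPM at low nitrate and 20.8, 25.6 and 26.8 CPM at high nitrate, with 1 count in B73 and 9 in ZmNRL1-OE. Zm00001d023364 stood at 17.5, 18.5 and 14.3 CPM at low nitrate and 16.2, 20.2 and 17.1 CPM at high nitrate, with 1 count in B73 and 0 in ZmNRL1-OE. The nitrate groups of these genes overlapped. Per length, Zm00001d023364 was the higher of the pair, at 25.2 ± 2.9 FPKM against 16.3 ± 3.4 FPKM (SD, n = 6).

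The 26 members with no count in any B73 or ZmNRL1-OE library reached a mean of 1.36 to 11.1 CPM in zmnrl1-m, with a median of 2.73. The highest of them, singled out after its values were seen, was Zm00001d051310, with 11.1 ± 3.3 CPM and 7.46 ± 2.21 FPKM (SD, n = 6) and a range of 5.59 to 15.4 CPM over the libraries.

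Genes lay close to either side of each limit of the rule. Zm00001d029743 and Zm00001d047261 were just inside the floor, each with a lowest library of 1.01 CPM, and Zm00001d027914 and Zm00001d050770 just outside, each with 0.984 CPM. In all 4 genes that lowest library was low-nitrate replicate 3 of zmnrl1-m. A further 57 genes met both count limits with 0.5 CPM or more in all 6 zmnrl1-m libraries but under 1 CPM in at least 1. At the ZmNRL1-OE limit, Zm00001d039289 with 10 counts and Zm00001d049413 with 9 were inside, and Zm00001d050828 and Zm00001d016239 with 12 each were outside. At the B73 limit, 14 members had 3 counts, and Zm00001d029114 and Zm00001d051683 with 4 each were outside.

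Lack of counts in B73 alone was met by more genes. Of 148 genes at the floor in zmnrl1-m with at most 3 counts in B73, 43 exceeded the ZmNRL1-OE limit. Of those 43, 12 had 11 to 100 counts over the 6 ZmNRL1-OE libraries, 16 had more than 100 and at most 1000, 15 had still more, and 27 reached 1 CPM in all 6. Another 107 genes at the floor met the ZmNRL1-OE limit but exceeded the B73 limit. Of these, 27 had 4 to 10 counts over B73, 48 had 11 to 1000 and 32 had more.

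**Figure D2:**
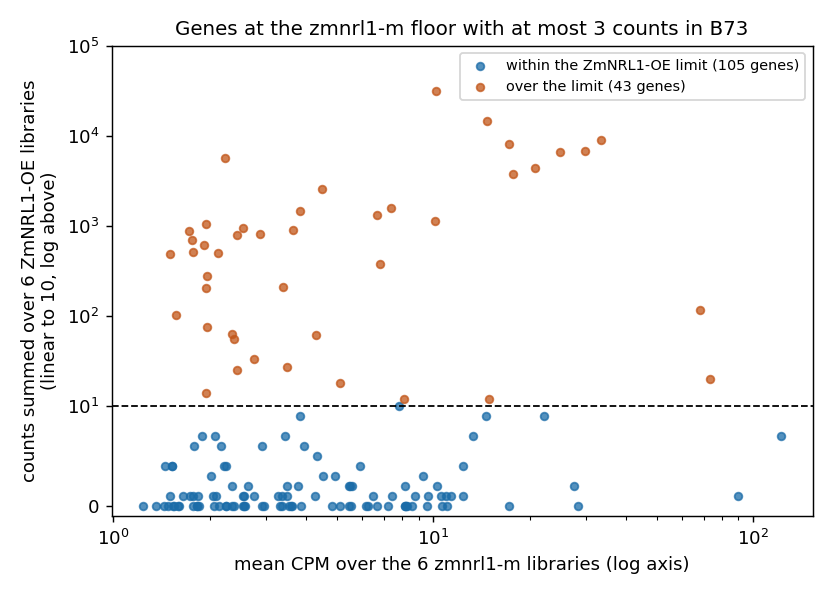
The 148 genes at or above 1 CPM in all zmnrl1-m libraries with at most 3 counts in B73, by mean CPM in zmnrl1-m (log axis) and counts summed over 6 ZmNRL1-OE libraries (linear to 10, log above). The 105 members lie at or under the dashed limit of 10 counts, and the 43 others run from 12 counts upwards without a separate cluster at the limit.

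The same rule turned round found 84 genes expressed only in ZmNRL1-OE and 34 expressed only in B73. The limit of 3 counts was then on B73 and on zmnrl1-m, respectively, and that of 10 counts on the remaining genotype. The median level in the genotype that expressed them was 3.48 CPM for the 105 genes of zmnrl1-m, 4.07 CPM for the 84 genes and 9.01 CPM for the 34 genes. Pair by pair, with a floor of 1 CPM in all 6 libraries of one genotype and at most 3 counts over the other, 148 genes were present in zmnrl1-m and lacking in B73, and 149 the other way. Between zmnrl1-m and ZmNRL1-OE, 144 genes were present in zmnrl1-m and lacking in ZmNRL1-OE, and 215 the other way. Between B73 and ZmNRL1-OE, 81 were present in B73 and lacking in ZmNRL1-OE, and 145 the other way. These counts are descriptions of the libraries.

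The members were mostly shorter than other expressed genes. Gene length was read from the ratio of the deposited counts and FPKM, which gave one length per gene in all libraries. The median was 901 bases in members, with a range of 177 to 4961, and 1942 bases in the 21705 other genes at the floor. Lengths under 1000 bases were found in 55 members (52.4%) and in 15.9% of the other genes. Low level goes with short length in these libraries, so members were also set beside other genes of like CPM. In 5 classes of 21 members each, from lowest to highest CPM, the median length was 876, 1042, 825, 901 and 1170 bases in members and 1248, 1310, 1433, 1545 and 2220 in the other genes of each class. Members had the lower median in all 5. The highest class is not matched on level, since it spans 8.60 to 122 CPM in members and includes other genes of far higher level. The mirror sets had medians of 978 bases in ZmNRL1-OE and 1224 bases in B73. Genes are not independent replicates, and no test was made of these lengths.

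**Figure D3:**
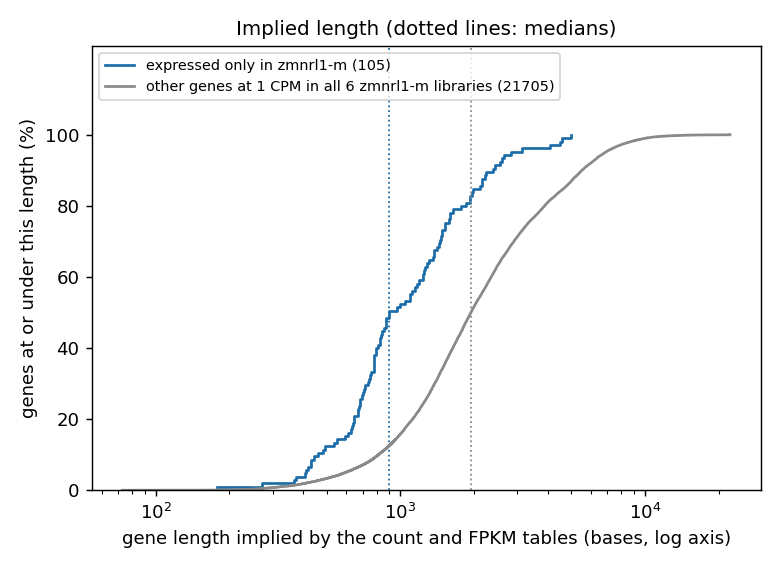
Share of genes (%) at or under a given implied length (bases, log axis) for the 105 members and the 21705 other genes at 1 CPM or more in all 6 zmnrl1-m libraries. The curve of the members lies to the left, with medians of 901 and 1942 bases marked by dotted lines.

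By identifier number, 3 pairs of members stood side by side and the rest had no other member within 5 numbers. Numbers of this annotation run along the chromosomes, and positions themselves were not read here. Of the 105 genes, 6 (5.71%) had another member at the next number, and 0.327% of the 21705 other genes had a member that near. Within 5 numbers it was the same 6 members and 1.87% of the other genes. Zm00001d007957 and Zm00001d007958 had mean levels of 6.86 ± 1.74 and 20.3 ± 5.9 FPKM, Zm00001d040673 and Zm00001d040674 had 13.7 ± 1.1 and 7.29 ± 0.96 FPKM, and Zm00001d047386 and Zm00001d047387 had 0.923 ± 0.132 and 10.0 ± 3.7 FPKM (SD, n = 6 zmnrl1-m libraries). Genes with neighbouring numbers can overlap, and no label or file states how reads that match more than 1 gene were counted.

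Genes next to a member were expressed in all genotypes about equally often. Of 152 genes with a number 1 above or below that of a member, members left out, 66 (43.4%) reached 1 CPM in all 6 B73 libraries, 71 (46.7%) in all 6 zmnrl1-m libraries and 68 (44.7%) in all 6 ZmNRL1-OE libraries. Next to the other genes at the floor these shares were 58.6%, 57.9% and 59.1% of 27710 genes. A gene with the reverse pattern, at 1 CPM or more in all B73 libraries and at most 3 counts in zmnrl1-m, lay within 5 numbers of 7 members (6.67%) and of 2.38% of the other genes. At the next number it was 1 member (0.952%) and 0.498% of the other genes. Within 10 numbers it was 10 members (9.52%) and 4.71%.

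Nitrate supply was the contrast that the rule did not use, and within zmnrl1-m few of these genes passed the test. In edgeR's quasi-likelihood test over all 18 libraries, 7 of the 105 genes (6.67%) had an adjusted p under 0.05, 3 higher and 4 lower at low nitrate. Over all 27134 genes tested, 17.9% were called, 8.89% higher and 8.97% lower. All 105 members were tested. The floor of 1 CPM in every library keeps out any gene close to 0 at one nitrate level. Of the other genes at that floor, 19.3% were called. Whether the floor bears on the share of members called was not tested.

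In the fit of all 18 libraries the lower share went with a larger error. That fit draws its error also from the 12 libraries where the rule holds members near 0. The median SE of the log2 fold change was 0.27 in members and 0.18 in the 7430 other genes at the floor with a mean under 12 CPM, of which 17.2% were called. Of the 95 members under 12 CPM, 4 (4.21%) were called. With the 6 zmnrl1-m libraries fitted alone, 8 members (7.62%) were called, against 15.6% of all genes tested and 13.7% of the other genes under 12 CPM. Of those 8, 5 were among the 7 called with all libraries, and Zm00001d047115 (adjusted p = 0.134) and Zm00001d030663 (0.0508) were not. The median SE of members was then 0.20, and that of the other genes was not computed for this fit. Neither the difference between these shares nor its relation to the error was tested.

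Among the called genes the largest change was in Zm00001d025142, which stood at 13.2, 12.7 and 14.5 CPM at high nitrate and at 4.14, 4.18 and 1.13 CPM at low nitrate. All low-nitrate libraries were below all high-nitrate ones, with replicate 3 lowest. It fell 4.29-fold, with a log2 fold change of -2.10 ± 0.38 (SE) and an edgeR adjusted p of 0.00411, and it stayed called in all 16 alternative settings (log2 fold change -2.36 to -1.70, adjusted p up to 0.0170).

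Zm00001d047261 stood at 4.15, 3.85 and 2.51 CPM at high nitrate and at 1.70, 1.12 and 1.01 CPM at low nitrate, without overlap. It fell 2.74-fold, with a log2 fold change of -1.46 ± 0.31 (SE) and an edgeR adjusted p of 0.0147. Its low-nitrate level lies on the floor of the rule. The call was lost without low-nitrate replicate 2 (adjusted p = 0.0546), low-nitrate replicate 3 (0.0646) or high-nitrate replicate 2 (0.0609), with an adjusted p of 0.000207 to 0.0646 over the alternatives. On the log2(FPKM + 1) scale the change was -0.44, since a pseudocount understates changes of low genes.

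Among the genes called higher at low nitrate, Zm00001d022891 had the largest fold change. It stood at 1.46, 2.57 and 2.65 CPM at high nitrate and at 3.50, 5.31 and 7.64 CPM at low nitrate, without overlap. It rose 2.48-fold, with a log2 fold change of 1.31 ± 0.35 (SE) and an edgeR adjusted p of 0.0367. The call was lost without any 1 of 5 libraries, all but low-nitrate replicate 1, and the adjusted p ranged from 0.00118 to 0.133 over the alternatives.

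Zm00001d024127 stood at 11.6, 10.8 and 9.63 CPM at high nitrate and at 15.2, 15.8 and 17.0 CPM at low nitrate, without overlap. It rose 1.499-fold, with a log2 fold change of 0.58 ± 0.15 (SE) and an edgeR adjusted p of 0.0131. The call was lost without low-nitrate replicate 3 (adjusted p = 0.0659) or high-nitrate replicate 3 (0.0630), and the adjusted p was 5.6e-05 to 0.0659 over the alternatives. It had 3 counts in B73 and 7 in ZmNRL1-OE.

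The other 3 called genes are named because the count is small, after their values were seen. Zm00001d052773 stood at 11.3, 13.8 and 13.5 CPM at high nitrate and at 6.86, 5.79 and 4.69 CPM at low nitrate, without overlap, and fell 2.22-fold. Its log2 fold change was -1.15 ± 0.20 (SE), the edgeR adjusted p was 0.00182, and it stayed called in all 16 alternatives, with -0.76 on the log2(FPKM + 1) scale.

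The abundant genes Zm00001d030663 and Zm00001d047115 were close to the threshold. Zm00001d030663 had a log2 fold change of -0.62 ± 0.19 (SE) and an edgeR adjusted p of 0.0467, and it lost its call in 8 of 16 alternatives, among them the fits that dropped replicate 2 or 3 of either nitrate level (adjusted p 0.00465 to 0.154 over the alternatives). Zm00001d047115 had a log2 fold change of 0.77 ± 0.24 (SE) and an edgeR adjusted p of 0.0415, and it lost its call in 7 of 16 (0.00131 to 0.265), among them the fits that dropped low-nitrate replicate 3 or high-nitrate replicate 1 or 2. With low-nitrate replicate 3 left out its log2 fold change was 0.40.

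**Figure D4:**
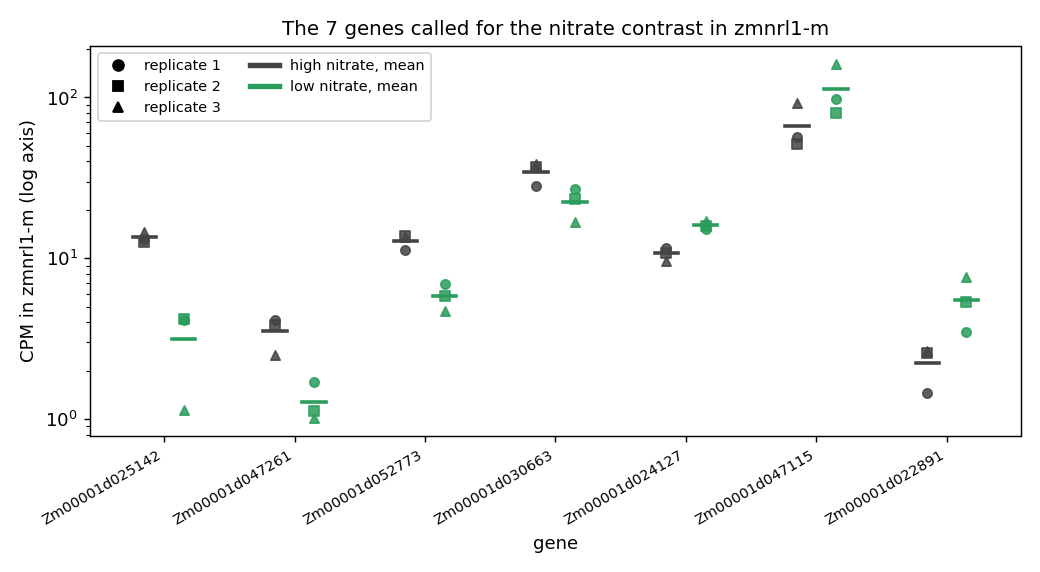
CPM (log axis) of the 7 genes called for low against high nitrate in zmnrl1-m, by replicate (marker shape) and nitrate level (colour), with the mean of 3 libraries as a bar. The groups are apart in 6 genes and overlap in Zm00001d047115, where replicate 3 is highest at both levels.

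How many genes were called depended on single zmnrl1-m libraries. With low-nitrate replicate 3 left out, 2 members were called, Zm00001d025142 and Zm00001d052773, and 10.8% of all genes tested. With low-nitrate replicate 2 left out, 4 members and 14.7% of all genes were called. The values were 3 members and 10.6% when high-nitrate replicate 2 was dropped, and 4 members and 12.6% when high-nitrate replicate 3 was dropped. Among the 4 other members with the highest CPM, Zm00001d035590, Zm00001d030287, Zm00001d016919 and Zm00001d023364, the log2 fold changes were -0.29 ± 0.19, -0.33 ± 0.17, -0.30 ± 0.18 and -0.09 ± 0.17 (SE). Their edgeR adjusted p were 0.32, 0.218, 0.284 and 0.781, and none passed.

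Small differences leaned to lower levels at low nitrate. The fitted log2 fold change was below 0 in 77 of the 105 genes (73.3%), with a median of -0.16, while it was below 0 in 48.8% of all genes tested, with a median of 0.00. It was within 2-fold in 100 members. Compared as TMM-scaled CPM, replicates of the nitrate levels did not overlap in 26 members (24.8%, against 35.7% of all genes tested). Of these, 22 were lower at low nitrate (18.3% of all genes) and 4 higher (17.4%). The members share libraries, so their directions are not independent, and no test was made over them. Summed over members, the level was 747, 736 and 727 CPM at low nitrate and 761, 805 and 811 CPM at high nitrate, means of 737 ± 10.2 and 792 ± 27.0 CPM (SD, n = 3). Without the 2 most abundant members it was 514 ± 33.8 and 591 ± 21.4 CPM.

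**Figure D5:**
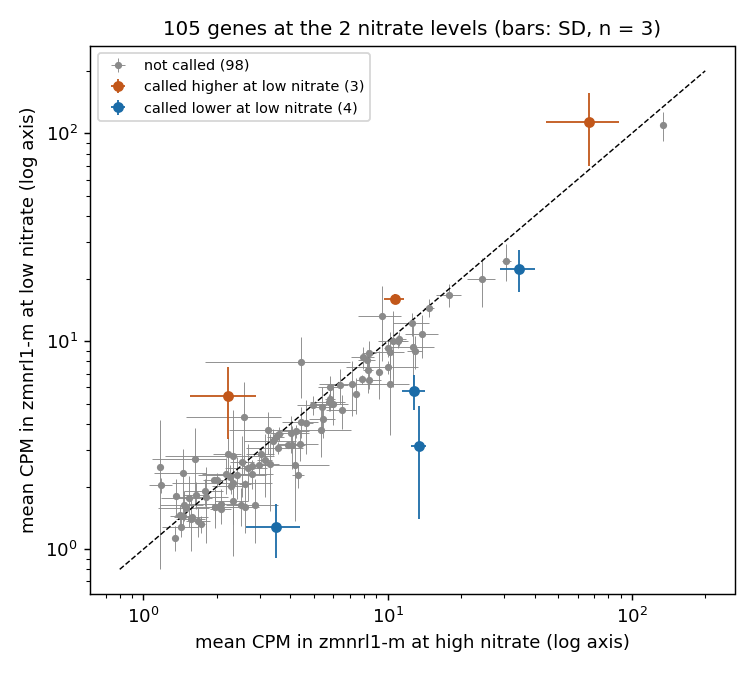
Mean CPM of each of the 105 genes in zmnrl1-m at high (x) and low (y) nitrate, log axes, with SD over 3 libraries as bars and equal levels as a dashed line. The 7 called genes are coloured, and 77 of the 105 genes have a fitted level below equality.

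The size of this lean moved with 2 zmnrl1-m libraries. Low-nitrate replicate 3 held the lowest CPM of the 6 libraries in 53 members (50.5%), against 31.0% of the other genes at the floor and 27.9% of those under 12 CPM. High-nitrate replicate 2 held the highest in 39 members (37.1%), against 23.2% of the other genes. The median log2 ratio of low-nitrate replicate 3 to the mean of the other 2 low-nitrate libraries was -0.24 in members and -0.05 in the other genes. With low-nitrate replicate 3 left out, 71 of 105 members had a fitted log2 fold change below 0, with a median of -0.11. With high-nitrate replicate 2 left out, 64 of 105 did, also with a median of -0.11. The share of all genes below 0 was not computed for these fits.

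Between low-nitrate replicates, members varied more than the other genes in 4 of 5 classes of CPM. The 4 include the highest class, which is not matched on level. The median coefficient of variation was 18.3% at low nitrate and 13.1% at high nitrate in members. In the 5 classes of CPM it was 14.8%, 22.1%, 16.9%, 18.8% and 17.8% at low nitrate in members, against 16.1%, 16.8%, 14.7%, 12.3% and 7.85% in the other genes. At high nitrate it was 12.04%, 15.95%, 13.4%, 10.97% and 11.7%, against 16.6%, 16.3%, 13.96%, 12.03% and 7.44%, so members were above the other genes in the highest class alone. That class spans 8.60 to 122 CPM in members and includes other genes of far higher level. The floor in every library trims the spread of genes near 1 CPM.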

How the data were processed

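The authors deposited 2 tables of 41632 genes for 18 libraries: raw read counts, used for all main results, and FPKM, the authors' values per length and depth. The submitters' processing notes name featureCounts 2.0.1, HISAT2 2.2.1, Trim Galore 1.18, bcl2fastq 2.19.1 and the build B73 RefGen_v4. No source used here states the strand setting or how reads with several matches were handled, so counts of near-identical, overlapping and antisense genes are uncertain.

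The members and lists were chosen with earlier results of these data known. CPM is relative to the column total, except that the numbers of genes without overlap of replicates used TMM-scaled CPM. Nitrate was tested in edgeR 4.0.16 (R 4.3.3) with a mean for each of 6 groups, TMM scaling and filterByExpr at a minimum count of 10, which left 27134 genes. P-values were Benjamini-Hochberg adjusted over those genes and called under 0.05. SE is the absolute log2 fold change divided by the root of the F statistic. Alternatives used DESeq2 1.42.0 and limma 3.58.1. The test was checked on simulated counts. Named genes were the 6 of highest CPM, the 2 higher and 2 lower called genes of largest change without overlap, genes at the limits and runs of identifiers. No zmnrl1-m library was taken for a duplicate (chi-square per degree of freedom 7.8 to 23.6 between zmnrl1-m replicates). Marker and product lists could not be matched to identifiers and were not tested.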

Additional observations from a re-analysis of the deposited data

How the results depend on the processing

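The rule gave 105 genes, and 162 with a floor of 0.5 CPM, 57 with 2 CPM and 26 with 0 counts required in the 12 other libraries. A floor of 1 FPKM in place of 1 CPM gave 114 genes, 91 of them among the 105. At most 3 counts over each other genotype gave 84 genes, and at most 10 over each gave 132. Leaving out 1 of the 18 libraries gave 105 to 115 genes. Each such set held all 105 by construction, since dropping a library can only loosen the limits. The nitrate test called 7 members (6.67%, against 17.9% of all genes tested), 3 higher and 4 lower. Leaving out 1 zmnrl1-m library gave 2 to 9 called, 0 to 5 higher and 2 to 4 lower. Those fits called 10.6% to 16.2% of all genes tested. limma on log2(FPKM + 1) called 35 (8 higher, 27 lower) and 18.0% of all genes tested. In that setting members were called more often than all genes, the reverse of the main fit. On log2(FPKM + 0.1) it called 13 (3 higher, 10 lower) and 17.7% of all genes tested. With the zmnrl1-m libraries alone, an alternative added after the data were examined, limma on log2(FPKM + 1) called 7 (2 higher, 5 lower), 4 of them among the 7. That fit called 13.9% of all genes tested, and it also has fewer residual degrees of freedom. The limma fit of all 18 libraries draws its error also from the 12 libraries where the rule holds members near 0. The cause of the larger count of 35 was not tested. DESeq2 called 8, 6 of them among the 7, and 19.8% of all genes tested. With the replicate number as a block 6 were called (3 higher, 3 lower), all among the 7, and 15.9% of all genes tested. The numbers did not pair the zmnrl1-m libraries (correlations of deviations -0.07, 0.08 and 0.13). The log2 fold change of Zm00001d023364 (-0.09) ran from -0.155 to 0.0188 with 1 library left out, and turned positive when low-nitrate replicate 3 (0.0047) or high-nitrate replicate 2 was the one dropped, never called, and the cause was not tested. The summed level at low nitrate was 758 CPM with TMM scaling and 514 CPM without the 2 most abundant genes, and at high nitrate 591 CPM without them. Leaving out 1 library gave 731 to 742 CPM at low and 783 to 808 CPM at high nitrate. Depth limits the low genes, since the lowest member value in a zmnrl1-m library rests on 25 counts.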
